A study of Mus musculus with 6 samples.

Results

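The genes described here are 40 genes of the cell division cycle, 22 of them acting in DNA replication and 18 in mitosis, measured in lungs of mouse embryos with and without Hopx. Each gene was read from 1 Affymetrix probe set, the one with the highest mean over the 6 lungs among those annotated to that gene alone. This gave values for 38 of the 40 genes, 21 for replication and 17 for mitosis, out of 18193 genes with such a probe set; Chaf1a and Ccnb1 were not analysed here. The groups were 3 lungs labelled Hopx -/- (called Hopx-null) and 3 labelled Hopx +/+ (called wild-type), all microdissected at E16.5 (embryonic day) from mice of a mixed strain background, with no other allele or treatment named. The labels call the lungs biological replicates and do not say whether a sample is 1 embryo or a pool. Values are log2 expression levels, so a difference of 1 is a change of 2-fold.

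DNA replication begins with licensing, when Cdc6 and Cdt1 load the Mcm2 to Mcm7 helicase onto origins in G1. Cdc45 and the GINS complex then switch the helicase on, polymerase alpha with its primase starts the new strands, and Pcna clamps the later polymerases to DNA. Mitosis uses another set of genes: Cdk1 with cyclins A and B drives entry, the Aurora and Plk1 kinases build the spindle, Bub1, Bub1b and Ttk hold the checkpoint, and Cdc20 triggers exit. Transcription of the first set is known to peak around the start of S phase under E2F factors, and that of the second in G2 and M through promoters with CCAAT boxes and a short element called CHR (cell cycle genes homology region). The lung at this stage is still growing and branching, and both sets are active in its epithelium and mesenchyme. In RNA of a whole lung, fewer dividing cells and less RNA per dividing cell cannot be told apart.

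The 6 arrays were alike, with correlations over all probe sets from 0.989 to 0.995, and Hopx itself matched the labels. At one Hopx probe set the Hopx-null lungs read 4.59 to 4.96 and the wild-type lungs 10.41 to 10.96, and at the other 10.35 to 10.64 and 12.26 to 12.50. Of 10 markers of lung epithelium, 8 lay above the upper quartile of all probe set means. Levels of Eif2s3y, on the Y chromosome, were 2.88 to 3.13 in 4 lungs but 11.72 and 11.56 in 2 wild-type ones, replicates 2 and 3, where Xist stood at 6.43 and 5.84 against 12.22 to 12.68 elsewhere. By these genes wild-type replicates 2 and 3 differ in sex from wild-type replicate 1 and all Hopx-null lungs, and the part of sex in the values that follow was not tested. In every comparison that leaves out wild-type replicate 1, genotype and sex cannot be told apart. Hopx-null replicate 3 had the largest excess of 3' over 5' signal in the actin and Gapdh controls (1.51 and 1.72, against 1.15 to 1.25 and 1.42 to 1.60 in the others).

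The promoters of the 2 sets differ in the motifs they hold. RefSeq promoters of build GRCm38.p6, running from 250 bases before to 50 bases after the start, were found for 33 of the 40 genes: 19 promoters of 18 replication genes and 15 of 15 mitosis genes. Both strands were searched for an E2F motif (TTTCCCGC, TTTCGCGC, TTTGCCGC or TTTGGCGC), for a CHR (TTTGAA or TTCGAA) and for a CCAAT box (CCAAT). An E2F motif was present in 7 of 19 replication promoters (36.8%) and 1 of 15 mitosis promoters (6.67%), against 2.26% of all 32851 promoters in the table. A CHR was present in 3 of 19 replication promoters (15.8%) and 12 of 15 mitosis promoters (80%), against 19.2% of all. A CCAAT box was present in 14 of 19 (73.7%) and 14 of 15 (93.3%), against 37.4% of all, and 12 mitosis promoters held both a CHR and a CCAAT box. These are matches of letters, not sites shown to be bound.

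The 250 bases before the start of 8 genes are given below, 5' to 3' on the strand of the gene. They are the 5 replication genes and 3 mitosis genes that had the largest differences of their set or no overlap between genotypes, whatever motifs they hold. Capitals mark the motifs, on either strand: blocks of 8 are E2F, of 6 CHR and of 5 CCAAT, and the block of 12 in Mcm5 is 2 E2F motifs that overlap on opposite strands. The replication stretches lie at chr11:98907901-98908150 (plus strand) for the licensing factor Cdc6, chr8:75109259-75109508 (plus), chr6:88898781-88899030 (minus) and chr1:20820313-20820562 (minus) for the helicase subunits Mcm5, Mcm2 and Mcm3, and chr16:93883651-93883900 (plus) for the chromatin assembly subunit Chaf1b. The mitosis stretches lie at chr9:70421555-70421804 (minus) for cyclin B2, chr7:122159185-122159434 (plus) for the kinase Plk1 and chr4:118437344-118437593 (minus) for the exit factor Cdc20.
Cdc6: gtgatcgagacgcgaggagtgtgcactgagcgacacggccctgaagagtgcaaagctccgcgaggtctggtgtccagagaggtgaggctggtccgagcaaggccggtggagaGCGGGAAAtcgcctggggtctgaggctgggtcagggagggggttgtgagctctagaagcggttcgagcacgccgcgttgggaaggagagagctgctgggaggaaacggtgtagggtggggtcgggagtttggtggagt
Mcm5: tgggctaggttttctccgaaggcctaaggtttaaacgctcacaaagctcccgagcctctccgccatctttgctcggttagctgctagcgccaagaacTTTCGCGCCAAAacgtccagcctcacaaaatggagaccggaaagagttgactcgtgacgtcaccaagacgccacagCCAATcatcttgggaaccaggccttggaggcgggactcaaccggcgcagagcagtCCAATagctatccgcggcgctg
Chaf1b: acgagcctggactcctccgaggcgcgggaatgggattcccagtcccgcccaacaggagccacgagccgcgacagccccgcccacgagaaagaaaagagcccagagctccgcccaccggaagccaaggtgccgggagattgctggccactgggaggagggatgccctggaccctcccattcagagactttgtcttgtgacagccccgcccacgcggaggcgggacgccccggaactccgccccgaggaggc
Mcm2: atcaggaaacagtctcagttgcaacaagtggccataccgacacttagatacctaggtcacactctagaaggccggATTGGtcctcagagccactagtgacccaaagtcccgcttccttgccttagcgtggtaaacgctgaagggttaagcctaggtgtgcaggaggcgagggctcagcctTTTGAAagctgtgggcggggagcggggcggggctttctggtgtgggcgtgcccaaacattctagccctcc
Mcm3: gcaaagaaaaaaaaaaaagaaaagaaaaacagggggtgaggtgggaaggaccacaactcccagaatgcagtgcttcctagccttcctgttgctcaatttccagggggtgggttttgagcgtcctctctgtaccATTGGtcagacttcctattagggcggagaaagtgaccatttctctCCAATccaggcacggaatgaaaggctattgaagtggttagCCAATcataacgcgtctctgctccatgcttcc
Ccnb2: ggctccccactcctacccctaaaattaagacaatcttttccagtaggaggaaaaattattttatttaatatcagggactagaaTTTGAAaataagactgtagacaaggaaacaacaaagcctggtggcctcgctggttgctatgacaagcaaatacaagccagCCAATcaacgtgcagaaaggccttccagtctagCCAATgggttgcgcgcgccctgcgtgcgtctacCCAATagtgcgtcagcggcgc
Plk1: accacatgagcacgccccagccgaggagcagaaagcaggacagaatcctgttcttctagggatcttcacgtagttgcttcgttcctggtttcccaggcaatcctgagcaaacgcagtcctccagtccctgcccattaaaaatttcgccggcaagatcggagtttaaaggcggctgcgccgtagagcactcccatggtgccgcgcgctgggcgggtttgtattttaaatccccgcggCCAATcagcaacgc
Cdc20: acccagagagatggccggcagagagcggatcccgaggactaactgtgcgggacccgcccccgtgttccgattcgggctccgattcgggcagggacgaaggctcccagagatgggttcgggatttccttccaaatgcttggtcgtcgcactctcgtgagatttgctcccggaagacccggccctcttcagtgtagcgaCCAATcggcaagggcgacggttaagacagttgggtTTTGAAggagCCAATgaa
Among the replication stretches, those of Cdc6 and Mcm5 hold E2F letters at positions -138 and -153 from the start, that of Mcm2 holds a CHR at -70 and a CCAAT box, that of Mcm3 holds CCAAT boxes alone, and that of Chaf1b holds none of the motifs. In Mcm3 both E2F matches lie after the start. The mitosis stretches all hold a CCAAT box. Cdc20 has a CHR at -18. Ccnb2 has one at -167 and a further one after the start, at position 5, while the only CHR of Plk1 lies after the start.

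The comparison of Hopx-null with wild-type lungs asks whether loss of Hopx is accompanied by a change in these genes. Differences were mostly positive for replication genes and negative for mitosis genes, but no gene of either set passed the test. The log2 difference (Hopx-null minus wild-type) was positive for 20 of 21 replication genes, or 19 with the arrays normalized again, where Ccne2 turned sign, and negative for 17 of 17 mitosis genes. Over all genes 52.2% of differences were positive and 47.8% negative. The median difference was 0.23 for replication and -0.27 for mitosis genes, against 0.01 for all genes. In limma (eBayes, Benjamini-Hochberg over all probe sets, threshold 0.05) 0 of 38 genes were called, and the smallest adjusted p among them was 0.878. Called probe sets made up 0.00444% of the 45037 tested, the 2 of Hopx. At an unadjusted p under 0.05 there were 8 of 21 replication genes, all positive, against 2.9% of all genes in that direction, and 0 of 17 mitosis genes, against 1.64% of all genes with a negative difference. The trend and robust options of limma called 0 members as well.

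**Figure D1:**
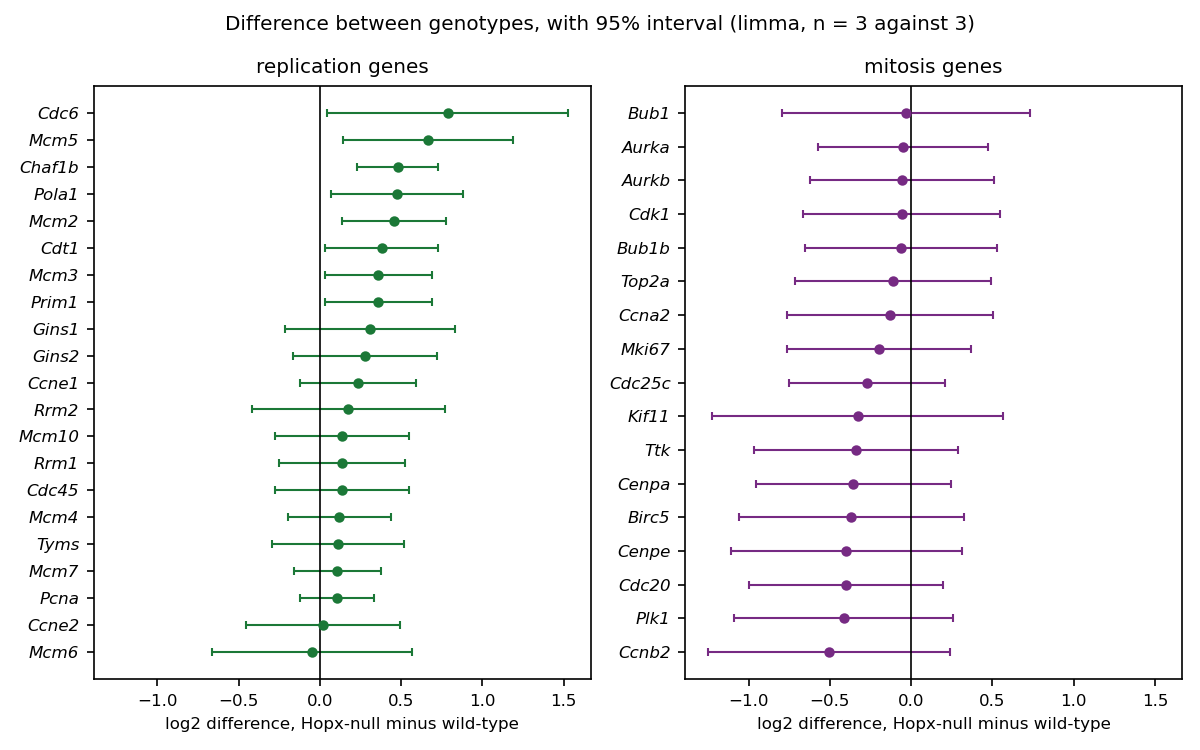
Log2 difference between genotypes (Hopx-null minus wild-type) with its 95% interval from limma for each of 21 replication genes (left) and 17 mitosis genes (right), 3 lungs against 3. Points lie right of 0 for 20 of 21 replication genes and left of 0 for all 17 mitosis genes, and the intervals of all mitosis genes include 0.

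By single lung, wild-type replicate 3 stood apart in the mitosis set and wild-type replicate 1 in the replication set. In the mean of the replication set, wild-type replicate 3 also lay below every Hopx-null lung. The means of wild-type replicate 2 lay within the Hopx-null range in both sets, and so did that of wild-type replicate 1 in the mitosis set. By gene, wild-type replicate 2 was the lowest lung for 6 of 17 mitosis genes and the highest for 4 of 21 replication genes. Wild-type replicate 3 was the highest of the 6 lungs for 17 of 17 mitosis genes, against 21.3% of all genes. Its mitosis genes lay above the mean of the other 5 lungs by 0.53 (Bub1b) to 1.22 (Kif11), with a median of 0.82. Wild-type replicate 1 was the lowest lung for 17 of 21 replication genes, against 15.5% of all genes. Its replication genes lay below the mean of the other 5 lungs in 21 of 21 cases, with a median offset of -0.40. The replication genes of wild-type replicate 3 lay below the mean of the other 5 lungs in 16 of 21 cases, with a median offset of -0.14. It was the lowest lung for 3 of them, against 24.0% of all genes.

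**Figure D2:**
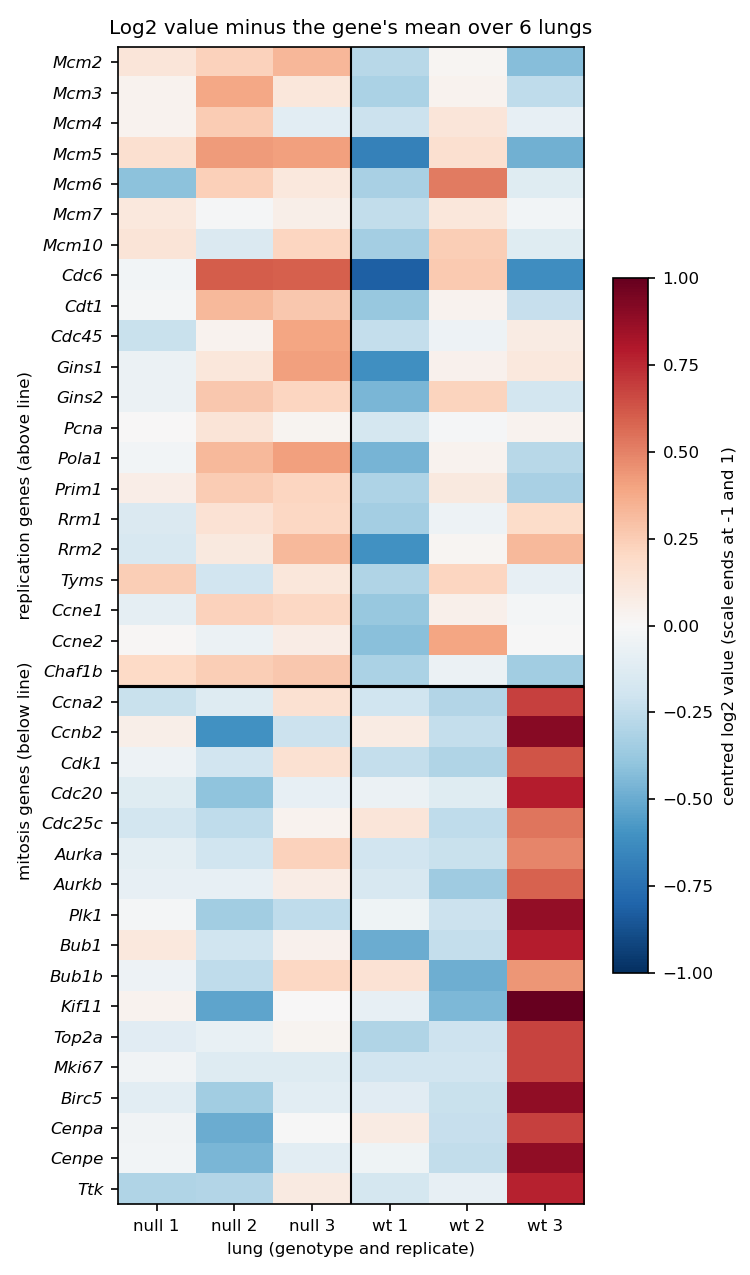
Log2 value of each gene in each lung minus the gene's mean over the 6 lungs, with replication genes above the black line and mitosis genes below it. The column of wild-type replicate 3 (wt 3) is red for all 17 mitosis genes, and that of wild-type replicate 1 (wt 1) is blue for all 21 replication genes.

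Averaged over the genes of a set, each centred on its own mean, the replication level was -0.0050, 0.19 and 0.23 in the Hopx-null lungs and -0.39, 0.11 and -0.14 in the wild-type lungs, each given in the order of the replicate numbers 1, 2 and 3, as in all such sentences that follow. The 2 genotypes overlap here, since wild-type replicate 2 lies above Hopx-null replicate 1. The mitosis level was -0.07, -0.29 and 0.0069 in Hopx-null lungs and -0.11, -0.26 and 0.73 in wild-type lungs. Without wild-type replicate 3, which stands alone, the 5 other lungs span -0.29 to 0.0069 with the genotypes intermixed. Wild-type replicate 2 and Hopx-null replicate 2 lie next to each other in both levels. The replication level minus the mitosis level was 0.07, 0.48 and 0.22 in Hopx-null lungs (mean 0.26 ± 0.21, SD, n = 3) and -0.28, 0.37 and -0.86 in wild-type lungs (mean -0.26 ± 0.62, SD, n = 3). The difference of these means, 0.52, is smaller than the spread among the wild-type lungs. It was 0.21 with wild-type replicate 3 left out. With wild-type replicate 2 left out it was 0.83.

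**Figure D3:**
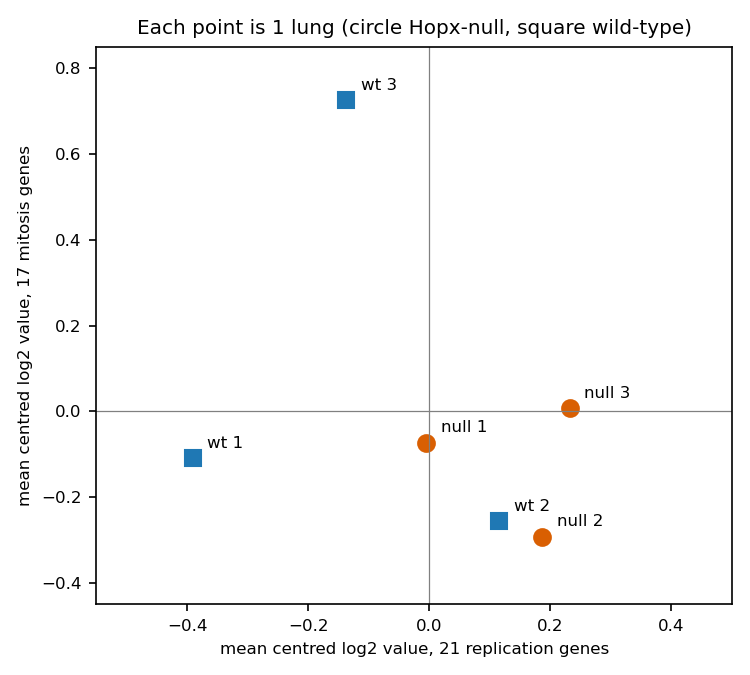
Mean centred log2 value of the 21 replication genes (horizontal axis) and the 17 mitosis genes (vertical axis) in each lung, with circles for Hopx-null and squares for wild-type. Wild-type replicate 3 stands at the top (0.73 for mitosis) and wild-type replicate 1 at the far left (-0.39 for replication), while wild-type replicate 2 lies beside Hopx-null replicate 2.

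The spread within a genotype was larger among wild-type lungs. The median SD of a mitosis gene was 0.52 in wild-type and 0.17 in Hopx-null lungs, and the wild-type SD was the larger for 17 of 17 genes. For replication genes these medians were 0.25 and 0.18, with the wild-type SD larger for 19 of 21. Over all genes they were 0.13 and 0.13, with the wild-type SD larger for 53.4%.

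The largest positive differences were those of the licensing factor Cdc6 and the helicase subunit Mcm5. Cdc6 (probe set 1417019_a_at) read 6.79, 7.42 and 7.41 in the Hopx-null lungs and 6.0, 7.07 and 6.19 in the wild-type lungs. Wild-type replicates 1 and 3 were thus low, while wild-type replicate 2 lay above Hopx-null replicate 1. The difference for Cdc6 was 0.79 (SE 0.31, limma, Benjamini-Hochberg adjusted p = 0.878), and leaving out 1 lung moved it between 0.57 and 1.11. Its loading partner Cdt1 differed by 0.38 (SE 0.15), with wild-type replicate 2 at 9.97 inside the Hopx-null range of 9.92 to 10.26.

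Mcm5 (1436808_x_at) read 9.12, 9.39 and 9.37 in Hopx-null lungs and 8.28, 9.12 and 8.48 in wild-type lungs. The genotypes did not overlap, but Hopx-null replicate 1 and wild-type replicate 2 are equal to 2 decimals. The difference for Mcm5 was 0.67 (SE 0.22, limma, Benjamini-Hochberg adjusted p = 0.878), a fold of 1.59, and its other probe sets gave 0.65 and 0.73. Mcm2 (1434079_s_at), another helicase subunit, read 8.76, 8.87 and 8.97 in Hopx-null and 8.36, 8.66 and 8.21 in wild-type lungs. All Hopx-null values of Mcm2 lie above all wild-type values, with a difference of 0.46 (SE 0.13) that was 0.44 at its second probe set. Mcm3 (1420028_s_at) read 8.90, 9.25 and 8.98 in Hopx-null and 8.55, 8.90 and 8.61 in wild-type lungs, a difference of 0.36 (SE 0.14). Its genotypes also did not overlap, by a margin too small to show at 2 decimals, and its 4 further probe sets gave 0.24 to 0.36.

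The other helicase subunits differed less at the probe set used. Mcm4 and Mcm7 differed by 0.12 (95% interval -0.20 to 0.44) and 0.11 (95% interval -0.16 to 0.37). The second probe set of Mcm4, with a mean of 9.32, gave 0.29 (SE 0.13), and further ones of Mcm7 gave 0.06 to 0.12. Mcm6 (1438852_x_at) was the 1 replication gene with a negative difference, -0.05 (95% interval -0.67 to 0.57). It read 8.57, 9.21 and 9.08 in Hopx-null and 8.65, 9.49 and 8.86 in wild-type lungs, so that wild-type replicate 2 was highest and Hopx-null replicate 1 lowest. Its second brightest probe set gave 0.12. Mcm10, which helps to open the fork, differed by 0.14, and a dim probe set of it by -0.03.

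Among the factors that fire the helicase, Gins1 and Gins2 differed by 0.31 (SE 0.22) and 0.28 (SE 0.19) and Cdc45 by 0.14 (SE 0.17). A further probe set of Cdc45 gave -0.09. For Gins1 the value without wild-type replicate 1 was 0.08, since that lung read 7.56 and the other 5 between 8.11 and 8.58. Cyclins E1 and E2, the partners of Cdk2 at the start of S phase, differed by 0.23 (Ccne1) and 0.02 (Ccne2). Ccne2 was highest in wild-type replicate 2 (8.02) and lowest in wild-type replicate 1 (7.20).

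Genes of strand synthesis and chromatin assembly included the fourth gene without overlap, Chaf1b, a subunit of the factor that places histones on new DNA. Chaf1b (1423877_at) read 7.49, 7.54 and 7.57 in Hopx-null and 6.98, 7.24 and 6.95 in wild-type lungs. It had the tightest Hopx-null values of the 38 genes (SD 0.04) and a difference of 0.48 (SE 0.10, limma, Benjamini-Hochberg adjusted p = 0.878), which stayed between 0.42 and 0.57 with each lung left out. A dim second probe set, with a mean of 3.24, gave -0.15. Pola1 differed by 0.48 (SE 0.17) and the primase Prim1 by 0.36 (SE 0.14), with 1 wild-type lung, replicate 2, inside the Hopx-null range in both genes. In all, 4 of 21 replication genes had every Hopx-null lung above every wild-type lung (Mcm2, Mcm3, Mcm5 and Chaf1b), against 6.21% of all genes, and 0 of 17 mitosis genes had the opposite, against 4.31%.

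The clamp Pcna (1417947_at) read 11.50, 11.62 and 11.51 in Hopx-null and 11.31, 11.48 and 11.52 in wild-type lungs, and differed by 0.11 (95% interval -0.12 to 0.33). Wild-type replicate 3 was second highest for Pcna, unlike for Cdc6 and Mcm5. The enzymes that supply deoxynucleotides gave small differences: 0.14 for Rrm1 and 0.18 for Rrm2, the ribonucleotide reductase subunits, and 0.11 for thymidylate synthase, Tyms. Rrm2 read 10.92 in both wild-type replicate 3 and Hopx-null replicate 3, the highest lungs, and 9.99 in wild-type replicate 1. Without wild-type replicate 1 the differences of Rrm2, Ccne2 and Tyms were -0.08, -0.19 and -0.01, and with Mcm6 these 4 genes were the negative ones of 21. The replication median was then 0.08, against 0.23 over all 6 lungs, while Mcm2, Mcm3, Mcm5, Cdc6 and Chaf1b kept differences of 0.43, 0.29, 0.49, 0.57 and 0.44.

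In the mitosis set the largest differences were those of Ccnb2, Plk1 and Cdc20. Cyclin B2, Ccnb2 (1450920_at), read 7.73, 7.06 and 7.45 in Hopx-null and 7.75, 7.43 and 8.58 in wild-type lungs. Wild-type replicate 3 was far above the rest, and of the remaining wild-type lungs one lay within the Hopx-null range and one just above it. The difference was -0.51 (SE 0.31, limma, Benjamini-Hochberg adjusted p = 0.878) and -0.18 without wild-type replicate 3.

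The spindle kinase Plk1 (1448191_at) read 6.85, 6.52 and 6.62 in Hopx-null and 6.83, 6.66 and 7.75 in wild-type lungs, a difference of -0.41 (SE 0.28). Cdc20 (1439377_x_at), which activates the anaphase-promoting complex, read 7.84, 7.56 and 7.88 in Hopx-null and 7.91, 7.84 and 8.75 in wild-type lungs, a difference of -0.40 (SE 0.25). As for Ccnb2, wild-type replicate 3 was the highest and Hopx-null replicate 2 the lowest lung for both genes. Without wild-type replicate 3 their differences were -0.08 and -0.11.

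Genes often used as measures of proliferation showed the same lung apart. Mki67 (1426817_at) read 8.92, 8.83 and 8.83 in Hopx-null and 8.77, 8.76 and 9.64 in wild-type lungs. Top2a (1454694_a_at), the topoisomerase that untangles sister chromatids, read 8.35, 8.39 and 8.49 in Hopx-null and 8.16, 8.25 and 9.14 in wild-type lungs. Cdk1 (1448314_at) read 9.14, 8.99 and 9.34 in Hopx-null and 8.94, 8.89 and 9.81 in wild-type lungs. In all 3 genes wild-type replicates 1 and 2 lay below every Hopx-null lung and wild-type replicate 3 above every one. The differences were -0.20 (95% interval -0.76 to 0.37) for Mki67, -0.11 (95% interval -0.71 to 0.49) for Top2a and -0.06 (95% interval -0.66 to 0.55) for Cdk1. Without wild-type replicate 3 they turned positive, at 0.09, 0.20 and 0.24.

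The kinetochore and checkpoint genes differed by -0.03 to -0.40. Cenpa, the histone of the centromere, differed by -0.36 (SE 0.25), the kinetochore motor Cenpe by -0.40 (SE 0.30) and the checkpoint kinase Ttk by -0.34 (SE 0.26). The checkpoint genes Bub1 and Bub1b differed by -0.03 and -0.06. Birc5, of the chromosomal passenger complex, differed by -0.37 and its kinase Aurkb by -0.05. The spindle kinase Aurka differed by -0.05, the kinesin Kif11 by -0.33, the phosphatase Cdc25c by -0.27 and cyclin A2, Ccna2, by -0.13. Without wild-type replicate 3 the count of negative differences was 8 of 17, in place of 17, and the median was 0.09.

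**Figure D4:**
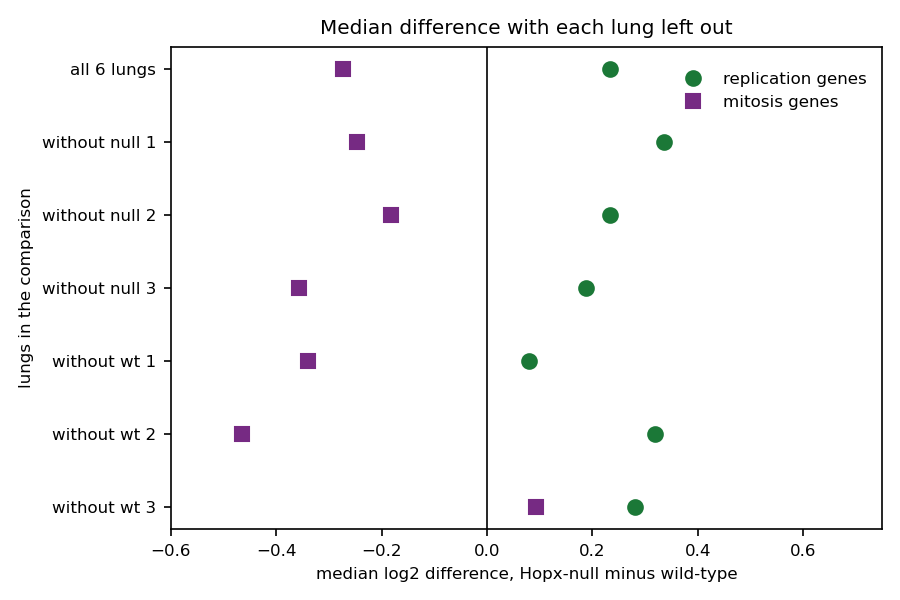
Median log2 difference (Hopx-null minus wild-type) of the replication genes (green circles) and mitosis genes (purple squares), with all 6 lungs and with each lung left out. The replication median stays positive, from 0.08 without wild-type replicate 1 to 0.34 without Hopx-null replicate 1, and the mitosis median moves from -0.27 to 0.09 without wild-type replicate 3.

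Other probe sets of the same genes gave the same pattern, more faintly where they were dim. The 31 further probe sets of replication genes had a median difference of 0.15, with 26 positive. Among the brighter ones, whose mean exceeded that of the median probe set, 15 of 15 were positive. The 17 further probe sets of mitosis genes had a median of -0.09, with 14 negative, and wild-type replicate 3 was the highest lung at 13 of them. Probe sets of 1 gene differed in sign for 6 replication genes (Mcm6, Mcm10, Cdc45, Rrm1, Tyms, Chaf1b) and for Bub1, Kif11 and Top2a. For Kif11 they gave -0.33, 0.13 and -0.07, for Bub1 -0.03 and 0.05, and for Top2a -0.11, -0.08 and 0.04. For Rrm1 they gave 0.14, 0.01 and -0.09, and for Tyms 0.11, 0.15, -0.24 and 0.00, of which the representative one has a mean below the median of all. Of the 38 representative probe sets, 4 in replication and 2 in mitosis carry the suffix s_at and 5 and 2 the suffix x_at, which mark probes that can also match other transcripts.

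Genes that work beside the replication genes were followed in 4 further lists, and 0 of their genes were called by limma. The polymerase, clamp loader and fork list had 18 of 18 positive differences, with a median of 0.19, and kept 17 of 18 without wild-type replicate 1 (median 0.13) or replicate 3 (median 0.16). Its largest were 0.49 for the polymerase epsilon subunit Pole, 0.31 for Pole2 and 0.30 for Rnaseh2a, which removes RNA from the new strand. Pole gave 0.09 without wild-type replicate 1. Every Hopx-null lung lay above every wild-type lung for 3 of the 18 genes, Rnaseh2a, the clamp loader subunit Rfc1 (0.14) and the single-strand binding protein Rpa1 (0.29), against 6.21% of all genes. The same held for 0 of 18 origin, 0 of 8 nucleotide supply and 0 of 9 S-phase chromatin genes. For Rnaseh2a the lowest Hopx-null value, 8.777, was just above the highest wild-type value, 8.775. At an unadjusted p under 0.05 there was 1 gene in the polymerase list (Rpa1), 1 in the origin list (Mcm8) and 0 in the nucleotide supply and S-phase chromatin lists, against 2.9% of all genes with a positive difference.

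The list of origin recognition and firing had 12 of 18 positive differences and a median of 0.07, with Mcm8 at 0.35, the origin kinase Cdc7 at -0.27 and the licensing inhibitor Gmnn at 0.24. Nucleotide supply had 5 of 8 positive and a median of 0.08, with Tk1 at 0.39, Shmt1 at -0.22 and Dut at 0.17. S-phase chromatin genes had 7 of 9 positive and a median of 0.11, with Uhrf1 at 0.35, Hells at 0.19 and the histone chaperone Asf1b at 0.14. Without wild-type replicate 1, which was the lowest lung for 8 of these 9 chromatin genes, 3 of 9 were positive, the median was -0.03 and Asf1b was at -0.07. Tk1 was at 0.03 without that lung.

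Genes that work beside the mitosis genes were followed in 5 lists, and 0 of their genes were called by limma. Spindle and kinesin motor genes had 16 of 16 negative differences and a median of -0.31, with the spindle assembly factor Tpx2 at -0.59, the kinesin Kif2c at -0.52 and Hmmr at -0.48. Wild-type replicate 3 was the highest lung for 14 of the 16, and without it 9 of 16 were negative with a median of -0.03. Cytokinesis genes had 7 of 8 negative and a median of -0.20, with Cep55 at -0.40, Prc1 at -0.27 and Ect2 at -0.24. Without wild-type replicate 3 the count was 2 of 8, the median 0.11, and Cep55 and Prc1 were at -0.0033 and 0.12. Regulators of mitotic entry and exit had 10 of 12 negative and a median of -0.11, with the ubiquitin-conjugating enzyme Ube2c at -0.56, Cdc25b at -0.17 and Cks2 at -0.16. Without wild-type replicate 3, which was highest for 9 of these 12, 5 were negative and Cks2 was at 0.04.

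The 2 remaining mitotic lists were evenly divided. Kinetochore and spindle checkpoint genes had 8 of 16 positive and a median of 0.01, with Cenph at 0.43, Cenpk at 0.34 and Cenpf at -0.28. Wild-type replicate 3 was the highest lung for 11 of the 16 and wild-type replicate 1 the lowest for 8. Without replicate 3, 16 of 16 were positive (median 0.14, Cenpf at 0.20), and without replicate 1, 4 of 16 were (median -0.11, Cenph at -0.0032). Condensin and cohesin genes had 5 of 10 positive and a median of -0.01, with Ncaph at 0.19, Ncapg at -0.16 and Smc4 at -0.14. Of these, 8 of 10 were positive without wild-type replicate 3 and 2 of 10 without wild-type replicate 1, and Ncapg was at 0.14 without replicate 3. At an unadjusted p under 0.05 there was 1 kinetochore gene (Cenpk), 1 spindle gene (the kinesin Kif18a, at -0.37) and 0 in the other lists of mitotic genes, against 2.9% and 1.64% of all genes in those directions. Every Hopx-null lung lay above every wild-type lung for 1 kinetochore gene (Cenpk), and below for 2 spindle genes (Kif18a and Kif22, the latter at -0.33) and 1 condensin gene (Smc4), against 6.21% and 4.31% of all genes.

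Regulators of the cell cycle were followed in the remaining 3 lists. Cell-cycle transcription factors had 12 of 18 negative differences and a median of -0.03, with Mycn at 0.38, E2f1 at 0.38 and Foxm1, the activator of mitotic genes, at -0.21. Wild-type replicate 3 was the lowest lung for Mycn and E2f1 and the highest for Foxm1. Without it these genes were at 0.09, 0.19 and -0.14. Of these 18 genes Foxm1 alone had every Hopx-null lung below every wild-type lung, against 4.31% of all genes, and none had the opposite. G1 cyclins, kinases and pocket proteins had 8 of 11 positive and a median of 0.06, with Rbl1 at 0.23, Cdk6 at 0.18 and Cdk4 at 0.12, and 5 of 11 were positive without wild-type replicate 1. Cdk6 was the 1 gene of the 11 with every Hopx-null lung above every wild-type lung, against 6.21% of all genes. CDK inhibitors and p53 targets had 8 of 11 negative and a median of -0.11, with Btg2 at -0.29, Cdkn2b at 0.22 and Cdkn1a (p21) at -0.19. Cdkn1a was at 0.07 without wild-type replicate 3 and 0.15 without Hopx-null replicate 1. In these 3 lists 0 genes were called by limma (eBayes, Benjamini-Hochberg) and 0 had an unadjusted p under 0.05.

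Markers of other cells and states also set wild-type replicate 3 apart. It was the highest lung for 10 of 13 cartilage markers, 7 of 9 interferon-stimulated genes and 5 of 7 neural and Schwann cell markers, against 21.3% of all genes. It was the lowest for 6 of 8 type I alveolar and 5 of 6 mesothelium markers, against 24.0% of all genes. The interferon list was also high in wild-type replicate 1, at 0.59 above the gene means against 1.10 in replicate 3. Mean levels of the cartilage list spanned 5.40 to 6.23 in Hopx-null and 5.35 to 7.61 in wild-type lungs, but wild-type replicate 2 was also high in it (1.03 above the gene means, against 1.29) while its mitosis level was low. The interferon list spanned 7.44 to 8.05 and 7.50 to 9.21, the neural list 5.50 to 6.19 and 5.53 to 6.64, the type I list 12.23 to 12.30 and 11.86 to 12.33, and the mesothelium list 9.47 to 9.65 and 9.23 to 9.76. The part of these tissues and states in the mitosis values was not tested.

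Several marker lists were also low in wild-type replicate 1. It was the lowest lung for 6 of 9 cardiac, 6 of 13 cartilage, 4 of 8 fibroblast and 4 of 8 multiciliated cell markers, against 15.5% of all genes. Mean levels of the cardiac list spanned 10.08 to 10.46 in Hopx-null and 9.67 to 10.43 in wild-type lungs, those of the fibroblast list 11.03 to 11.25 and 10.85 to 11.57, and those of the multiciliated list 7.88 to 8.05 and 7.73 to 8.19. Wild-type replicate 3, at -0.14 for replication, was at 0.29 in the cardiac, 0.27 in the fibroblast, 1.29 in the cartilage and 0.01 in the multiciliated list. The multiciliated list was highest in wild-type replicate 2, at 0.23. The erythroid list, whose immature cells divide, had a probe set annotated to 1 gene alone for 8 of its 11 genes. Around its gene means it read -0.49, 0.48 and 0.31 in Hopx-null lungs and -0.17, 0.05 and -0.18 in wild-type lungs. Hopx-null replicates 2 and 3 were thus highest in it as in replication. Their mitosis levels were -0.29, the lowest of all lungs, and 0.0069. Mean levels of the erythroid list spanned 6.12 to 7.09 and 6.43 to 6.66. The part of these cells in the replication values was not tested. Thymocyte markers, from a dividing tissue next to the lung, had mean levels of 4.69 to 5.49, with 0 of 7 above the upper quartile of all probe sets. On this log scale no marker is at 0, and 1 gene each of the erythroid (Hba-a1), cartilage (Matn3), neural (Nefm) and thymocyte (Ptcra) lists had a mean below the lower quartile. The remaining lists had mean centred values between -0.19 and 0.19 in every lung for smooth muscle, -0.10 and 0.10 for epithelium and blood endothelium, and -0.16 and 0.08 for macrophages and leukocytes.

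**Figure D5:**
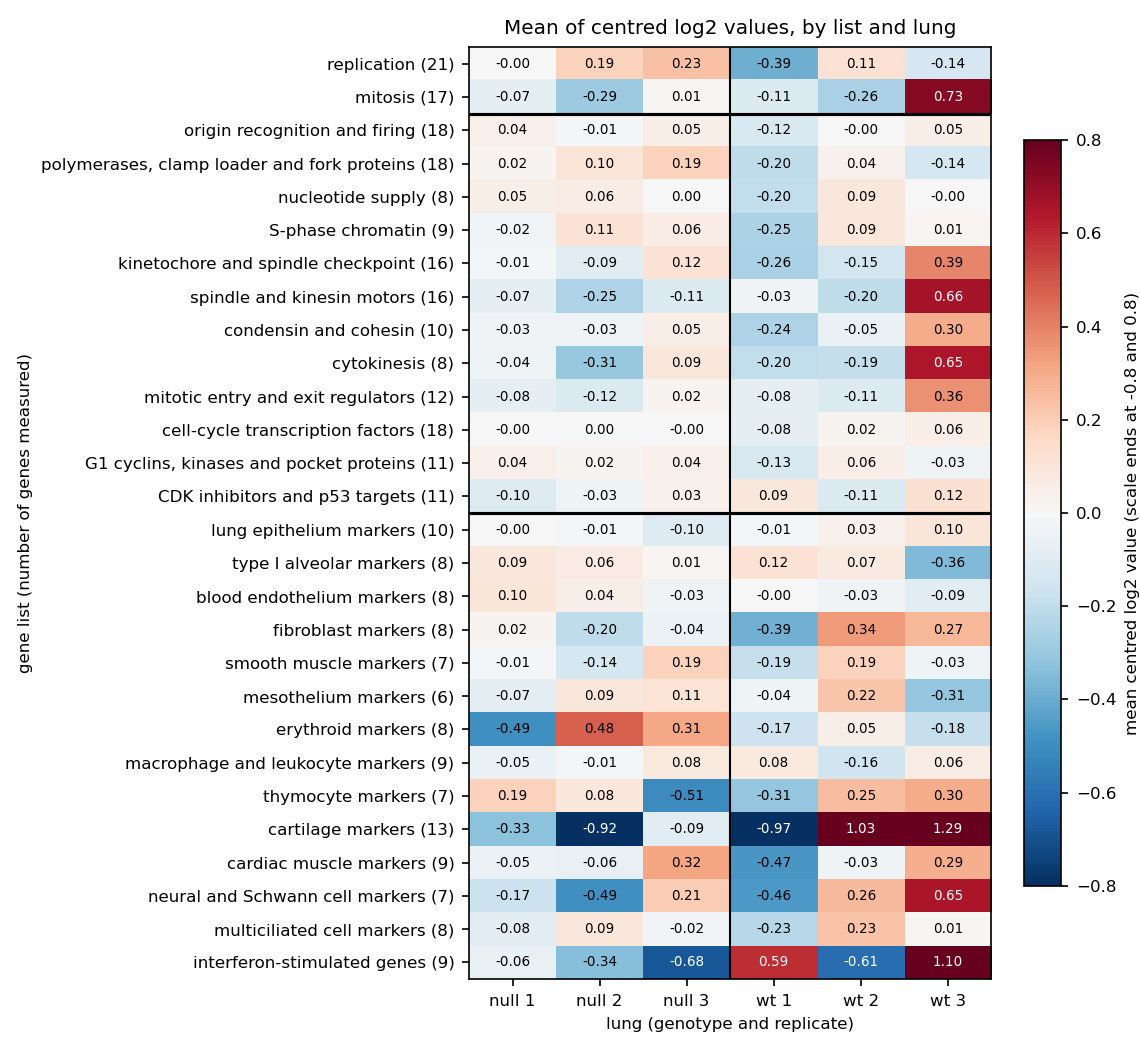
Mean of centred log2 values for each gene list in each lung (numbers in cells; genes measured in parentheses), with the replication and mitosis genes at the top, lists of related genes in the middle and marker lists at the bottom. Wild-type replicate 3 (wt 3) has the highest value in all 5 lists of mitotic machinery (0.30 to 0.66), and wild-type replicate 1 (wt 1) the lowest in the 4 lists around replication (-0.12 to -0.25).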

How the data were processed

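Total RNA of each sample, called a lung here, was hybridised to 1 single-channel Affymetrix array. The submitters' processing notes list RMA and Partek 6.6, giving neither role nor order. The values deposited by the authors were taken as log2 expression from their range and the listing of RMA; the log base is not stated. RMA gives the arrays like distributions, so a shift of most genes would not show.

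Of 45101 probe sets, 64 controls were left out and 45037 tested without a filter, with limma 3.58.1 in R 4.3.3 (lmFit, eBayes) on genotype and Benjamini-Hochberg adjustment over all of them (threshold 0.05). The platform annotation names 1 gene for 34945. The fit was tested on simulated data in which probe sets varied independently and the planted changes were larger than those of the members. Shifts of many genes together in 1 lung were not simulated, so the simulation does not bear on them. The number of arrays, 3 per genotype, limits the precision, and 95% intervals come from the fit.

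Members, lists and tests were chosen with earlier results of these data known, so lists are described by counts and medians. Given with values in every lung were members without overlap between genotypes, the 3 with the largest difference in each direction per set, and Mki67, Pcna, Top2a, Cdk1 and Mcm2; of each related list, the 3 largest differences were named. Values by lung of Cdt1, Gins1, Rrm2 and Ccne2, and the names Rfc1, Rpa1, Kif18a and Kif22, were added after their values were seen. The alternatives left out each lung in turn, took the replicate number as a block, used other probe sets or the threshold 0.1, turned on limma's trend and robust options or its array weights, dropped dim probe sets, and normalized the arrays again.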

Additional observations from a re-analysis of the deposited data

How the results depend on the processing

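No member was called under any alternative, the adjusted p threshold of 0.1 included. The replication median lay between 0.20 and 0.29 and the mitosis median between -0.14 and -0.29 with all lungs. Leaving out 1 lung, the replication median ranged from 0.080 to 0.34, the mitosis median from -0.47 to 0.09, the difference of replication minus mitosis from 0.21 to 0.83, positive replication genes from 17 to 21 of 21 and negative mitosis genes from 8 (without wild-type replicate 3) to 17 of 17. With the second brightest probe set, available for 12 mitosis genes, 10 were negative. The counts of positive and negative genes under each alternative were added after the data were seen.

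Called probe sets, 2 in all, numbered 23 without wild-type replicate 1, 12 without Hopx-null replicate 1 and 1 without each of the other lungs. Without wild-type replicate 1, all wild-type lungs left differ in sex from all Hopx-null lungs, so genotype and sex cannot be told apart there. Deviations of same-numbered lungs from their genotype means had correlations of -0.10, -0.12 and 0.18, against -0.15 to 0.24 for lungs of unlike number. So few pairs cannot settle whether the numbers pair the lungs, and the labels name no pairing. With the replicate block 1 probe set and 0 members were called. The medians, 0.23 and -0.27, could not change with this block, since each number holds 1 lung of each genotype. Of the 38 members and 40 other named genes, 21 turned sign under at least 1 alternative, 14 of them without wild-type replicate 3. Leaving out 1 lung, the ranges for replication members were -0.22 to 0.20 for Mcm6 (0.0098 with array weights), -0.025 to 0.28 for Cdc45, -0.084 to 0.38 for Rrm2, -0.012 to 0.25 for Tyms and -0.19 to 0.22 for Ccne2 (-0.0016 with quantile normalization again, -4.67e-05 with arrays centred on the median). For mitosis members they were -0.31 to 0.18 for Ccna2, -0.22 to 0.24 for Cdk1, -0.18 to 0.18 for Aurka, -0.24 to 0.23 for Aurkb, -0.29 to 0.35 for Bub1 (0.041 with array weights), -0.32 to 0.14 for Bub1b, -0.64 to 0.099 for Kif11, -0.29 to 0.20 for Top2a and -0.34 to 0.094 for Mki67. For other genes they were -0.11 to 0.36 for Asf1b, -0.0032 to 0.70 for Cenph, -0.63 to 0.20 for Cenpf, -0.38 to 0.14 for Ncapg, -0.50 to 0.12 for Prc1, -0.29 to 0.045 for Cks2 and -0.59 to 0.15 for Cdkn1a. The cause of these changes was not tested.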
